A study of Homo sapiens with 9 samples.

Results

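The comparison described here asks what small extracellular vesicles released by DMSO-treated breast cancer cells do to the transcripts of cells of the same line. It sets 3 libraries labelled Cont sEV against 3 labelled No sEV, 6 of the 9 libraries of the series, over every gene with at least 1 TPM (transcript abundance scaled to the same total in every library) in at least 3 of the 9 libraries. That filter left 13879 of 60719 genes. All recipients were wild-type MDA-MB-231 cells, a human breast cancer line, incubated for 72 h in what the labels call 5% exo-free media. The No sEV cells received no vesicles. The Cont sEV cells received vesicles isolated by differential centrifugation from the medium of donor MDA-MB-231 cells that had been given DMSO for 72 h and then exo-free medium for 72 h. The 3 remaining libraries, labelled TIS sEV for therapy-induced senescence, came from recipients of vesicles from donors given 100 ng/ml nocodazole, a microtubule poison, on the same schedule. Their values are set beside the others where they help to place a gene, and comparisons of either vesicle group with No sEV share the 3 No sEV libraries. Donor and recipient were 1 cell line, so transcripts carried in by vesicles and transcripts made by the recipients cannot be told apart. The labels do not say whether the No sEV cells received the liquid in which vesicles are suspended.

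Small extracellular vesicles are membrane-bound particles that cells release either from multivesicular bodies, as exosomes, or by budding from the plasma membrane. They carry tetraspanins, adhesion proteins, lipids and RNA, and recipient cells take them up mainly by endocytosis, after which much of the cargo is delivered to lysosomes or released into the cytosol. In breast cancer they have been studied as carriers of signals that act on growth, invasion and inflammation. MDA-MB-231 is a mesenchymal line without oestrogen or progesterone receptor, and its markers in the libraries matched that description in part. VIM, the mesenchymal intermediate filament, was at 2239.6 ± 1.86 TPM (SD, n = 3) without vesicles and 2221 ± 16.97 with Cont sEV, and the adhesion receptor CD44 at 445 ± 14.8 and 457 ± 16.7. The hormone receptor genes ESR1 and PGR, the luminal factor FOXA1 and the epithelial cadherin gene CDH1 were all under 1 TPM in each of the 6 libraries. Unlike that description, which the labels do not give, the matrix gene SPARC averaged 0.694 ± 0.351 TPM without vesicles. GATA3, ERBB2, EPCAM and luminal keratins were present, with GATA3 at 3.33 ± 0.819 and ERBB2 at 27.7 ± 1.47. Of 10 fibroblast markers 8 were under 1 TPM in all 6 libraries, of 8 endothelial markers 4, of 10 immune markers 7 and of 8 platelet and red cell markers all 8. Sums of the first 3 kinds overlapped between the groups: fibroblast markers summed to 9.66 to 10.95 TPM without vesicles and 8.504 to 10.4 with Cont sEV, endothelial markers to 32.5 to 37.9 and 33.5 to 35.5, and immune markers, nearly all of it CD68, to 154 to 159 and 150.5 to 164. Platelet and red cell markers, all near 0, summed to 0.883 to 1.01 TPM without vesicles and 1.08 to 1.60 with Cont sEV, without overlap.

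No gene passed the test. By limma's moderated test, 0 of 13879 genes (0.0%) had a Benjamini-Hochberg adjusted p under 0.05, and the smallest adjusted p, 0.0791, was held by PRSS2, which was higher with Cont sEV, and KISS1, which was lower. Without adjustment, 837 genes (6.03%) had p under 0.05, where 694 would be expected if no gene differed. Of these 490 (3.53% of all genes) were higher with Cont sEV and 347 (2.5%) lower. That split depended on scaling: after median-of-ratios scaling it was 406 higher and 466 lower, and after quantile normalization 400 and 470. In 1554 genes (11.2%) the 3 Cont sEV values and the 3 No sEV values did not overlap, 933 (6.72%) higher and 621 (4.47%) lower. Separation of 3 against 3 values is common even where no gene differs, so these shares are a description and not a call. The mean was higher with Cont sEV in 7838 genes (56.5%) and lower in 6041 (43.5%), and the median difference was 0.011 on the log2(TPM + 1) scale, on which all differences below are given and which understates the change of genes at a few TPM. The 5th and 95th percentiles of the differences were -0.16 and 0.21. Libraries of the 2 groups differed from each other about as much as libraries within a group. For the 3386 genes that averaged 50 TPM or more, the SD of the log2 difference between a pair of libraries was 0.0835 to 0.0881 within No sEV, 0.0832 to 0.0941 within Cont sEV and 0.0777 to 0.108 across the groups.

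**Figure D1:**
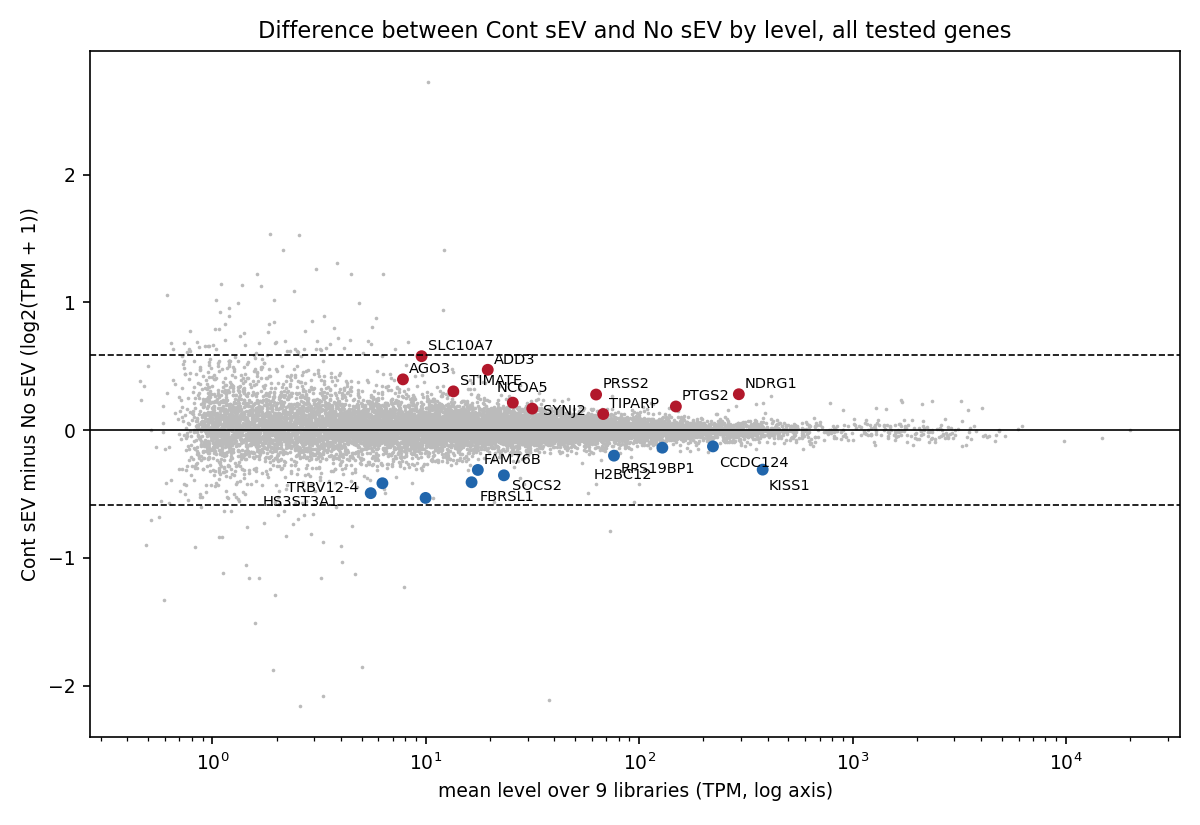
Difference between Cont sEV and No sEV (log2(TPM + 1), mean of 3 libraries each) against mean TPM over 9 libraries on a log axis, 1 point for each of 13879 tested genes. Red and blue points are the genes of smallest p per direction that averaged 5 TPM or more and had groups that did not overlap; dashed lines mark 1.5-fold, and the cloud narrows as the level increases.

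The intervals say how large a change the 3 libraries per group leave room for. For 12759 genes (91.9%) the whole 95% confidence interval of the difference lay within 1.5-fold in either direction, gene by gene and without adjustment for the number of genes. Where a gene averaged 5 TPM or more (10483 genes), the share was 98.3% within 1.5-fold, 86.3% within 1.25-fold and 99.7% within 2-fold. The interval extended 0.37 to each side at the median for 1625 genes under 2 TPM, 0.18 for 4013 genes of 5 to 20 TPM, 0.12 for 4783 genes of 20 to 100 TPM, and 0.069 for 153 genes at 1000 TPM or more. Observed means differed by more than 1.5-fold in 121 genes, and 16 of these averaged 5 TPM or more.

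**Figure D2:**
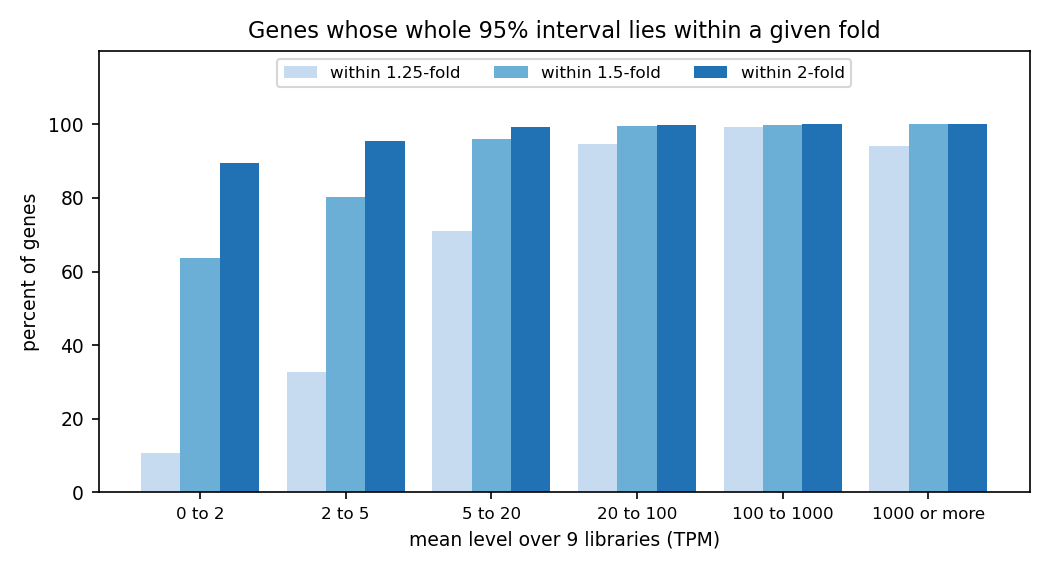
Percent of tested genes whose whole 95% confidence interval for Cont sEV minus No sEV lies within 1.25-fold, 1.5-fold or 2-fold, by mean level over 9 libraries. Bars within 1.5-fold go from 63.6% of genes under 2 TPM to 100% of genes at 1000 TPM or more.

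PRSS2 and KISS1 stood nearest to the threshold. PRSS2 encodes anionic trypsinogen, the secreted precursor of a digestive protease that some tumours make as well. Its level was 60.8, 61.003 and 63.7 TPM in the 3 No sEV libraries, 74.9, 75.99 and 74.8 in the 3 Cont sEV libraries and 52.1, 49.7 and 52.4 in the 3 TIS sEV libraries. All Cont sEV values lay above all No sEV values, and all TIS sEV values lay below all No sEV values. The difference between Cont sEV and No sEV was 0.28 (95% interval 0.20 to 0.36, limma's moderated test, Benjamini-Hochberg adjusted p = 0.0791), a level 21.6% higher. Trypsinogen genes are near copies of each other, so a read can fit more than 1 of them. PRSS3 was at 69.2 ± 4.06 TPM (SD, n = 3) without vesicles and 71.5 ± 1.62 with Cont sEV, and PRSS1 averaged under 1 TPM in both groups. KISS1 encodes the precursor of the kisspeptins, secreted peptides first described as suppressing metastasis and better known as regulators of puberty. It was at 418, 413 and 411 TPM without vesicles, 345, 339 and 319 with Cont sEV and 390.3, 373 and 402 with TIS sEV. The 3 Cont sEV values were the lowest of the 9. The difference from No sEV was -0.31 (-0.39 to -0.23, limma's moderated test, Benjamini-Hochberg adjusted p = 0.0791). With the filter set at 5 TPM, which tests fewer genes, KISS1 passed (limma's moderated test, Benjamini-Hochberg adjusted p = 0.0448), and with no filter PRSS2 passed (0.0415). In the other alternatives neither passed, and for both genes the adjusted p was highest, 0.591, without No sEV replicate 2.

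The 250 bases before the RefSeq start of PRSS2, KISS1 and PTGS2, the gene of next smallest p among those with higher levels, are shown because each holds the letters TATAAA, the core of a TATA box, within 32 bases of the start. The capitals mark those letters on either strand; in KISS1 a match on each strand overlaps, 31 and 29 bases before the start. Sequences are from RefSeq on GRCh38.p14, written 5′ to 3′ on the gene's strand.
PRSS2, chr7:142770720-142770969, plus strand: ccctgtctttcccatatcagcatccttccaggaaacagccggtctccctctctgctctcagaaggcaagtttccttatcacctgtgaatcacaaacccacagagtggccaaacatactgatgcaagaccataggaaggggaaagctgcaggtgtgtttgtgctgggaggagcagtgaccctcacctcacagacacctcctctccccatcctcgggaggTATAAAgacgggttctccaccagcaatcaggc
KISS1, chr1:204196492-204196741, minus strand: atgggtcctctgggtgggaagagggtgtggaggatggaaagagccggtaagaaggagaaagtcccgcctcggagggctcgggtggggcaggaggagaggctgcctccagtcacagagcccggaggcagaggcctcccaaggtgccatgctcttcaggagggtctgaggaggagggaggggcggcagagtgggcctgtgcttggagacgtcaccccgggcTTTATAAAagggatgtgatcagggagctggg
PTGS2, chr1:186680424-186680673, minus strand: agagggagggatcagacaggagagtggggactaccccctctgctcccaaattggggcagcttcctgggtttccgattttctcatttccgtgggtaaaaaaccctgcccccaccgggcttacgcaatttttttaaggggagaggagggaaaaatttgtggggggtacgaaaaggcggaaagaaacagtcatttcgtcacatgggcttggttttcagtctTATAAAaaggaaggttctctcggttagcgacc
Among the 20 genes of smallest p described here, 15 had an entry in the promoter table and 5 of these (33.3%) held TATAAA on either strand, namely PRSS2, PTGS2, ADD3, KISS1 and H2BC12. Of 35116 promoter windows of the same length, 10.7% held it. A match is a description of these letters and says nothing of use. By GENCODE release 29 on GRCh38, PRSS2 spans chr7:142760398-142774564, KISS1 chr1:204190341-204196486 and PTGS2 chr1:186671791-186680427, all protein-coding. The PRSS2 window lies inside that GENCODE span, so it precedes the RefSeq start and not the GENCODE start.

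The 9 genes that follow among those with higher levels differed by less than the test could call. PTGS2, the inducible cyclooxygenase that makes prostaglandin H2, was at 138, 141 and 146 TPM without vesicles and 162, 157 and 165 with Cont sEV, a difference of 0.19 (0.12 to 0.25; limma's moderated test, Benjamini-Hochberg adjusted p = 0.448). The TIS sEV libraries, at 142, 145 and 141, lay within the No sEV range. NDRG1, a hypoxia- and differentiation-induced gene studied as a suppressor of metastasis, was at 286, 259.96 and 288 TPM without vesicles, 336, 326 and 352 with Cont sEV and 271, 249.6 and 269 with TIS sEV, a difference of 0.28 (0.17 to 0.39) for Cont sEV. Its Cont sEV values were the 3 highest of the 9. Earlier results of these data had already given NDRG1 for TIS sEV against Cont sEV. ADD3, the gamma subunit of adducin, which caps and crosslinks the actin and spectrin skeleton, was at 15.7, 14.5 and 17.4 without and 22.2, 24.99 and 20.2 TPM with Cont sEV (0.47, 0.28 to 0.66), and at 20.8, 20.9 and 18.9 with TIS sEV. Here both vesicle groups lay above all 3 No sEV values. The differences were 0.58 for SLC10A7, which encodes a membrane protein of the bile acid transporter family needed for skeletal development, 0.40 for AGO3, an Argonaute protein that binds small RNAs, and 0.30 for STIMATE, a regulator of store-operated calcium entry. Those 3 genes lay under 16 TPM in all 9 libraries. SYNJ2, a phosphoinositide phosphatase of endocytosis, differed by 0.17, NCOA5, a nuclear receptor coregulator, by 0.22, and TIPARP by 0.13. All 9 had groups that did not overlap, which the choice of the genes required.

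Among the genes with lower levels, KISS1 was followed by genes of varied function. SOCS2, a feedback inhibitor of growth hormone and cytokine signalling, was at 26.6, 26.1 and 26.2 TPM without vesicles, 22.8, 18.9 and 19.6 with Cont sEV and 23.9, 21.3 and 23.8 with TIS sEV. Its difference was -0.35 (-0.51 to -0.20; limma's moderated test, Benjamini-Hochberg adjusted p = 0.61), and the 6 vesicle libraries all lay below the 3 without. H2BC12, a histone H2B gene whose relatives are nearly identical in sequence, showed the like order, with 78.995, 84.9 and 85.6 TPM without vesicles against 70.6, 74.7 and 71.5 with Cont sEV and 74.6, 70.9 and 73.8 with TIS sEV. CCDC124, a ribosome-binding protein, was at 227, 222 and 219.99 TPM without vesicles, 206, 208 and 198 with Cont sEV and 239, 236 and 238 with TIS sEV. Its 3 groups did not overlap, Cont sEV being lowest and TIS sEV highest. CCDC124 too was known from earlier results of these data for TIS sEV against Cont sEV, a comparison that shares the Cont sEV libraries. HS3ST3A1, an enzyme that sulphates heparan chains, was at 6.59 ± 0.182 TPM (SD, n = 3) without and 4.40 ± 0.169 with Cont sEV, and RPS19BP1, which binds ribosomal protein S19, at 134 ± 2.21 and 122 ± 3.24. FAM76B differed by -0.31, FBRSL1 by -0.41 and the noncoding gene ENSG00000276529 by -0.53. TRBV12-4 is a variable segment of the T cell receptor beta locus, in which PRSS2 also lies. It differed by -0.42, at 6.80 ± 0.390 TPM without vesicles and 4.85 ± 0.188 with Cont sEV. In limma's moderated test the Benjamini-Hochberg adjusted p was 0.448 for NDRG1, 0.556 for ADD3 and 0.61 or above for the other 15 of these 20 genes.

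**Figure D3:**
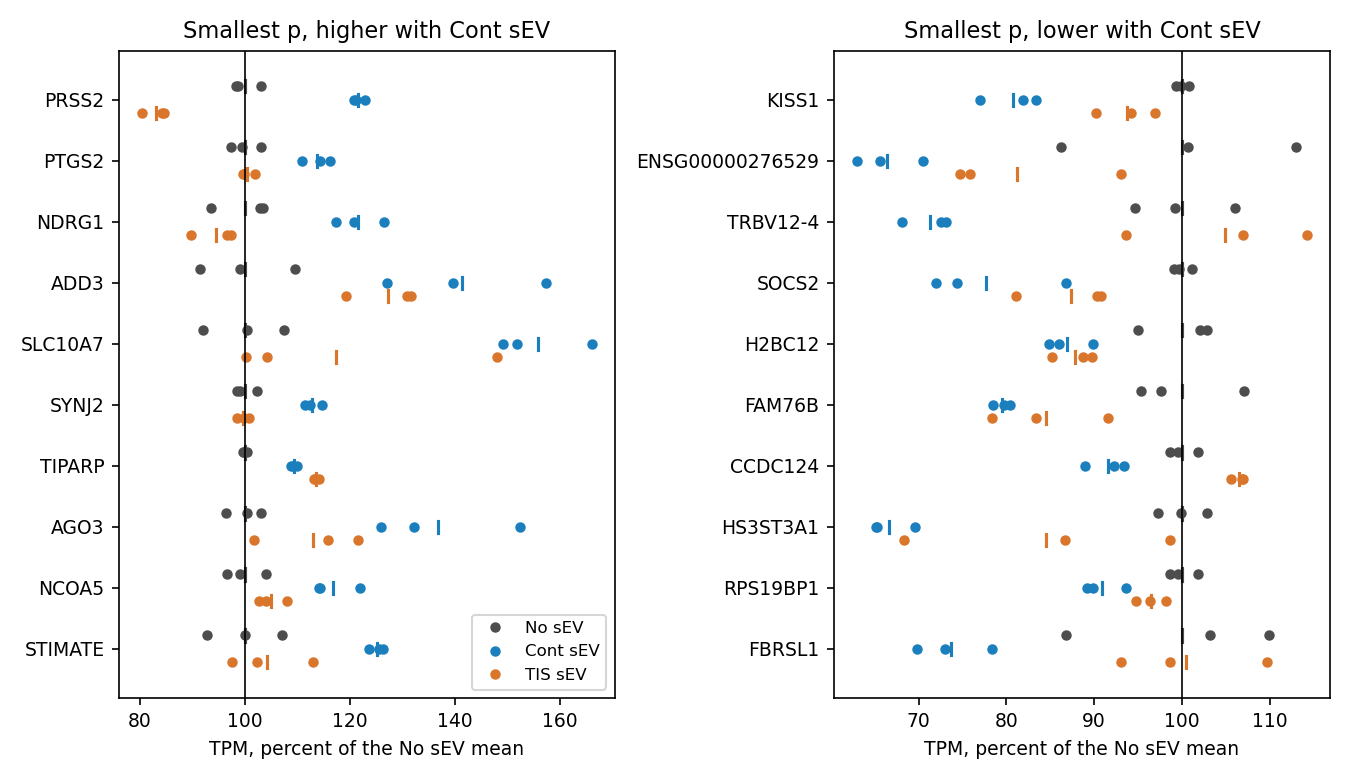
TPM of the 20 genes of smallest p in each of the 9 libraries, as percent of the gene's No sEV mean; points are libraries and ticks are group means (n = 3). PRSS2 and NDRG1 show Cont sEV above and TIS sEV below or level with No sEV, TIPARP shows both vesicle groups above, and KISS1 shows both below.

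The genes through which cells release and take up vesicles were level. Of 29 tested genes of vesicle release and biogenesis, 15 were higher and 14 lower, and 0 passed. In 1 of them (STAM) the groups did not overlap, as in 11.2% of all genes. The median difference was 0.0016 against 0.011 over all tested genes. The tetraspanins that mark these vesicles were at 631 ± 1.03 and 626 ± 17.2 TPM for CD63, 271 ± 14.5 and 265 ± 6.71 for CD81, and 272 ± 9.21 and 262 ± 11.99 for CD9 (SD, n = 3, without and with Cont sEV). Their 95% intervals, -0.075 to 0.049 for CD63, -0.13 to 0.074 for CD81 and -0.14 to 0.030 for CD9, left no room for a 1.25-fold change. RAB27B, a small GTPase that docks multivesicular bodies at the plasma membrane, was at 8.09, 8.03 and 9.54 TPM without vesicles and 8.98, 9.31 and 11.4 with Cont sEV, and the groups overlapped. Among 28 tested genes of endocytosis and uptake, 18 were higher and 10 lower (median 0.015). None had higher groups that did not overlap and 2 had lower ones, CAVIN1 and GPC1, against 6.72% and 4.47% of all genes. CAVIN1, which shapes caveolae, was at 207 ± 5.12 TPM without and 198 ± 3.67 with Cont sEV. In the list of 30 lysosome and autophagy genes 21 were higher and 9 lower (median 0.018). None of the genes in these 3 lists had an unadjusted p under 0.05, where 6.03% of all genes did.

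Of the lists by pathway or function, the mitochondrially encoded mRNAs alone had a higher median than the aryl hydrocarbon receptor list. The receptor is a ligand-activated transcription factor that pairs with ARNT and drives xenobiotic enzymes of the CYP1 family, and TIPARP, a mono-ADP-ribosyltransferase, is both its target and its repressor. Of 10 tested members 9 were higher and 1 lower, none passed, and the median was 0.12. In 6 of the 10 the Cont sEV values lay above all No sEV values, and 7 had an unadjusted p under 0.05 with higher levels; over all genes those shares were 6.72% and 3.53%. AHR itself was at 47.6, 45.8 and 46.2 TPM without vesicles, 52.7, 49.7 and 54.5 with Cont sEV and 48.9, 48.3 and 51.4 with TIS sEV, a difference of 0.16 for Cont sEV (0.067 to 0.26; limma's moderated test, Benjamini-Hochberg adjusted p = 0.728). ARNT was at 20.1, 20.2 and 20.8 without and 21.4, 23.6 and 22.5 with Cont sEV. TIPARP stood at 62.9, 62.9 and 63.3 TPM without vesicles, 69.3, 68.9 and 68.5 with Cont sEV and 71.96, 71.3 and 71.4 with TIS sEV, 3 groups without overlap. SERPINB2, an inhibitor of plasminogen activators, was at 94.5, 94.7 and 88.4 without, 101, 102 and 96.8 with Cont sEV and 112, 108 and 105 with TIS sEV. CYP1B1 was at 7.60, 6.44 and 8.22 without and 9.99, 8.28 and 9.25 with Cont sEV, and its relative CYP1A1, named after its values were seen, at 8.79, 9.15 and 10.5 without and 12.6, 9.81 and 11.5 with Cont sEV, where 1 Cont sEV value lay within the No sEV range. IL24, the 1 lower member, differed by -0.057. The promoter of TIPARP is shown for the letters GCGTG, the core of the receptor's binding site, which occur in it on the opposite strand 208 and 142 bases before the start (capitals).
TIPARP, chr3:156674340-156674589, plus strand, RefSeq on GRCh38.p14: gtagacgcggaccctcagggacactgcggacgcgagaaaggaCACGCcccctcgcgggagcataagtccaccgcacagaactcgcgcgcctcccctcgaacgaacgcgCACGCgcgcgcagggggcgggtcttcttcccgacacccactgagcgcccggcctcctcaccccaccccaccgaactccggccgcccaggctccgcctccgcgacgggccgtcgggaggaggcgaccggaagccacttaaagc
These letters stand on either strand in 3 of the 9 members with a promoter entry and in 32.2% of all promoter windows of that length.

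Hypoxia and glycolysis genes were higher in 34 of 39 tested members and lower in 5, against 56.5% and 43.5% over all genes, with a median of only 0.029. In 9 members the Cont sEV group lay above the No sEV group and in none below, where 6.72% and 4.47% of all genes did, and none passed. Beside NDRG1, these included VEGFA, the endothelial growth factor, at 312, 308 and 337 TPM without vesicles, 390.1, 349.8 and 363 with Cont sEV and 349, 411 and 346 with TIS sEV. DDIT4, an inhibitor of mTOR complex 1, was at 311, 302 and 309.8 TPM without and 322, 323 and 318 with Cont sEV, and ANGPTL4, a secreted inhibitor of lipoprotein lipase, at 12.9, 12.7 and 12.8 without and 13.3, 14.4 and 14.7 with Cont sEV. GAPDH, the glycolytic enzyme often used as a reference gene, was at 3171, 3199.6 and 3269 without and 3395, 3323 and 3407 with Cont sEV. The groups did not overlap in either gene, though the differences were only 0.061 for DDIT4 and 0.071 for GAPDH. The letters ACGTG, the core of a hypoxia response element, stood on either strand in 16 of the 34 members with a promoter entry (47.1%) and in 18.5% of all promoter windows of that length. The list was drawn up from known hypoxia and glycolysis genes, so this share describes the list and not these libraries. A match says nothing of use.

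Secreted factors and proteases leaned higher. Of 37 tested factors that senescent cells are known to secrete, 29 were higher and 8 lower (median 0.036), against 56.5% and 43.5% of all genes. The groups did not overlap in 13 higher members and 1 lower one, against 6.72% and 4.47% of all genes, and none passed. CSF3, which drives granulocyte production, was at 101, 96.6 and 101 TPM without vesicles, 109, 115 and 113 with Cont sEV and 104, 95.1 and 103 with TIS sEV, a difference of 0.18 (0.087 to 0.27). CSF1, the macrophage growth factor, was at 347, 325 and 344 without and 350.5, 350.3 and 369.9 with Cont sEV, both above its TIS sEV values of 294, 291 and 301. CSF1 was among the genes that earlier results of these data gave for TIS sEV against Cont sEV. The lower member was IL11, a cytokine of the IL-6 family, at 336, 327 and 331 TPM without and 319, 307 and 295 with Cont sEV, with 355, 345 and 369 in the TIS sEV libraries. For IL11 the 3 groups did not overlap and Cont sEV was lowest. Among matrix metalloproteinases and their inhibitors 13 of 17 were higher and 4 lower (median 0.035), 5 of them with higher groups that did not overlap, beside the same 6.72% of all genes. MMP3, which degrades several matrix proteins, was at 49.97, 51.8 and 49.9 TPM without and 56.96, 58.6 and 55.7 with Cont sEV, MMP1, the interstitial collagenase and one of the most abundant transcripts of these cells, at 6127, 6077 and 6121 without and 6229, 6243 and 6254 with Cont sEV, and TIMP3, a matrix-bound inhibitor, at 125, 127 and 126 without and 134, 129 and 136 with Cont sEV. MMP1, MMP3 and TIMP1 are also members of the secreted factor list, so these counts overlap.

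Cystatins inhibit cysteine proteases, and trypsinogens are serine protease precursors. Of 14 tested genes of both kinds with their receptor and inhibitors, 9 were higher and 5 lower (median 0.034). CST4, a secreted salivary-type cystatin, was at 276, 251 and 278 TPM without vesicles, 301, 310.3 and 287 with Cont sEV and 213, 213 and 224 with TIS sEV, and its near copy CST1 at 1098, 1037 and 1096 without, 1140.3, 1136 and 1161 with Cont sEV and 838, 805 and 841 with TIS sEV. In both genes, as in PRSS2, Cont sEV was highest and TIS sEV lowest without overlap. Each of the 3 was named here because earlier results of these data gave it for TIS sEV against Cont sEV, a comparison that shares the Cont sEV libraries. SLCO4A1, an organic anion transporter, and MARCKSL1, an actin-binding protein, named for the same reason, had the same order, at 92.4 ± 1.93 and 79.1 ± 1.39 TPM (SD, n = 3) without vesicles, 103 ± 2.90 and 87.6 ± 0.207 with Cont sEV, and 83.4 ± 2.60 and 72.9 ± 3.17 with TIS sEV. Some others named for that reason did not separate Cont sEV from No sEV. F3, tissue factor, was at 299.997, 297 and 309 TPM without and 291, 299 and 297 with Cont sEV, and NOG, an antagonist of bone morphogenetic proteins, at 60.8, 62.001 and 60.1 without and 62.5, 56.9 and 59.4 with Cont sEV, both with overlapping groups. PRSS23, a serine protease outside the trypsinogen family, was lower, at 245, 237 and 248 without and 227, 224 and 229 with Cont sEV.

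Targets of YAP and TAZ, the coactivators of the Hippo pathway that respond to cell density and stiffness, leaned the other way. Of 26 tested targets 11 were higher and 15 lower (median -0.027). In 8 the Cont sEV group lay below the No sEV group and in none above, against 4.47% and 6.72% over all genes. In 7 the unadjusted p was under 0.05, all lower, where 2.5% of all genes were lower and 3.53% higher in that way. ANKRD1, a much-used readout of the pathway, was at 647, 678 and 665 TPM without vesicles, 625, 631 and 609 with Cont sEV and 699, 714 and 706 with TIS sEV, 3 groups without overlap. Earlier results of these data gave ANKRD1 for TIS sEV against Cont sEV, so that part of the order was known beforehand. AMOTL2, a scaffold that binds YAP, was at 65.5, 67.9 and 68.2 without and 60.7, 62.7 and 61.5 with Cont sEV, and TGFB2, a TGF-beta ligand, at 84.9, 86.2 and 93.9 without and 83.3, 77.5 and 81.9 with Cont sEV. The largest difference in the list was that of RBMS3, an RNA-binding protein gene, at -0.27 (-0.49 to -0.046). None passed limma's moderated test, and the Benjamini-Hochberg adjusted p of ANKRD1 was 0.728. AP-1 and immediate early genes were split, 10 higher and 12 lower of 22 (median -0.014). JUN was lower, at 104, 107 and 103 without and 98.6, 96.2 and 95.1 with Cont sEV, and so was IER2, at 111, 112 and 111 without and 106, 107 and 100.2 with Cont sEV, while FOSL1, a Fos-family partner of JUN, was higher, at 411, 404 and 395 without and 426, 414 and 429.8 with Cont sEV. For JUN the TIS sEV libraries, at 108, 114 and 117, lay above both other groups.

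**Figure D4:**
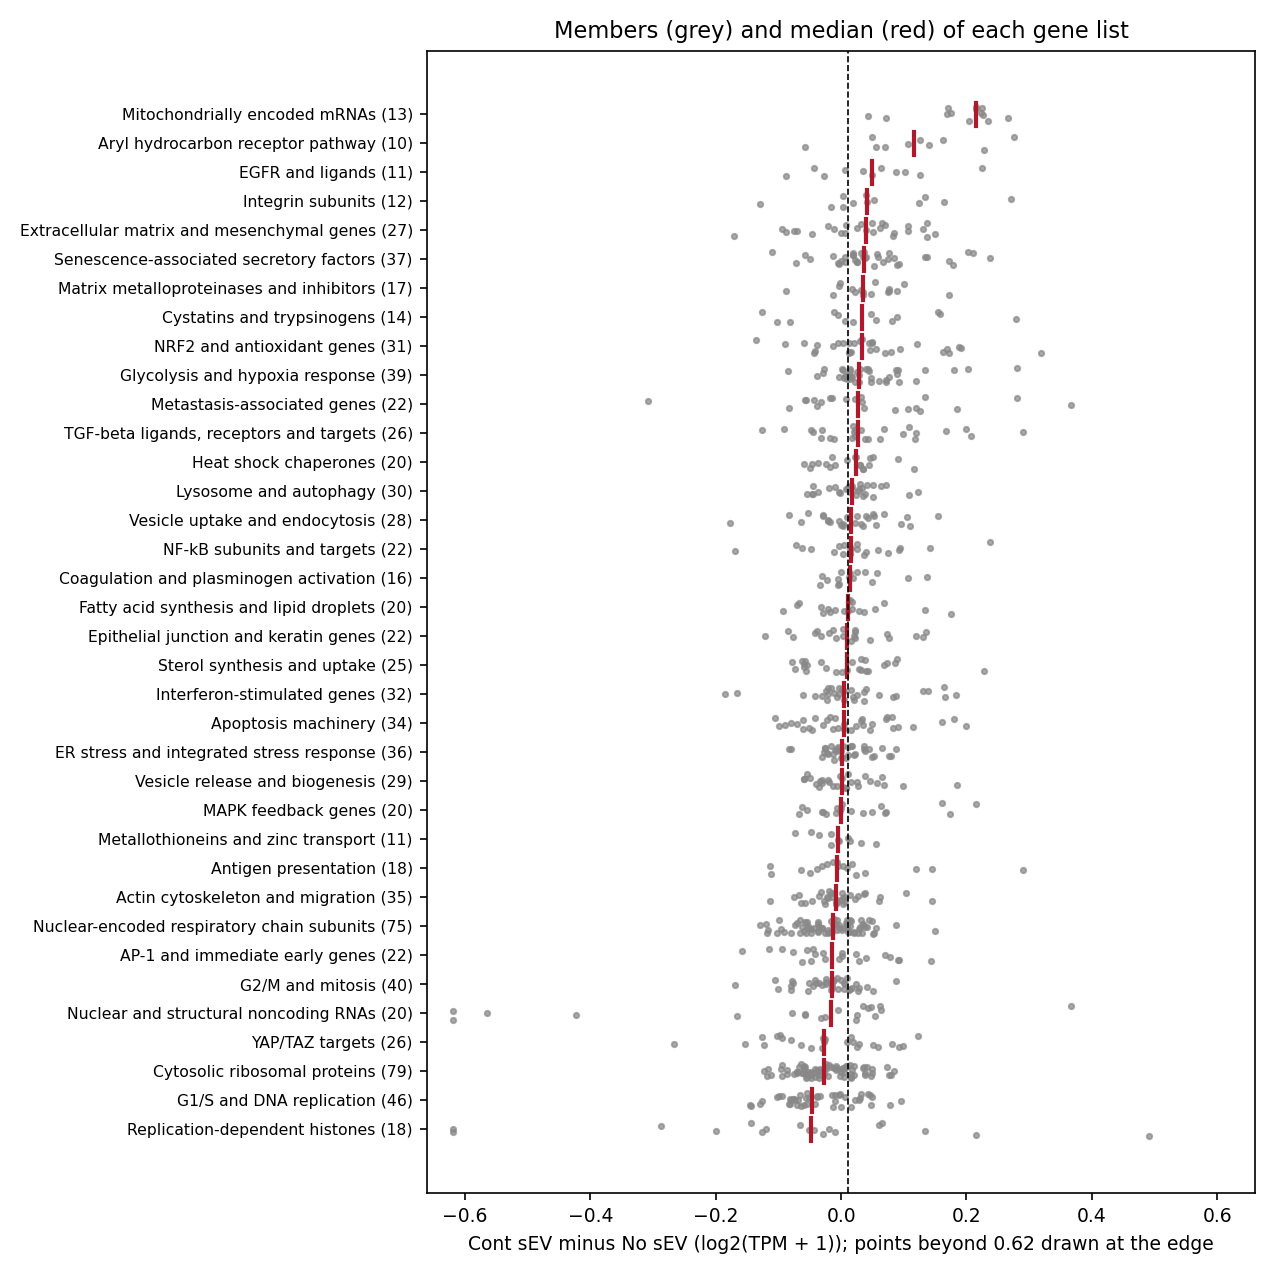
Difference between Cont sEV and No sEV (log2(TPM + 1)) of every tested member (grey) and the median (red) of each gene list by pathway or function, without cell type markers and processed pseudogenes, with the number tested in parentheses; the dashed line is the median of all 13879 tested genes, and points beyond 0.62 are drawn at the edge. Mitochondrially encoded mRNAs and the aryl hydrocarbon receptor pathway have the highest medians, and the medians of the other lists drawn lie within 0.05 of 0.

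Other signalling lists had medians between -0.0061 and 0.049. Interferon-stimulated genes were 18 higher and 14 lower of 32 (median 0.0050), 6 with higher and 1 with lower groups that did not overlap, against 6.72% and 4.47% of all genes. OASL, a member of the oligoadenylate synthetase family, was at 29.4, 26.8 and 29.1 TPM without vesicles and 31.99, 32.2 and 32.9 with Cont sEV. IFIT3 and IFIT2, which bind viral RNA as complexes, were at 88.9 ± 2.22 and 38.4 ± 1.34 TPM (SD, n = 3) without and 97.96 ± 2.41 and 43.2 ± 1.18 with Cont sEV. IFI27, a gene strongly induced by type I interferon, was lower, at 65.5, 62.6 and 58.2 without and 55.3, 51.6 and 56.7 with Cont sEV. NF-kB subunits and targets were higher in 16 and lower in 6 of 22 (median 0.015), with NFKBIZ, a nuclear cofactor of NF-kB, at 37.8, 41.7 and 43.9 without and 44.7, 45.5 and 46.02 with Cont sEV. MAPK feedback genes were split evenly, 10 and 10 of 20, with DUSP6, an ERK phosphatase, at 317, 321 and 316 without and 344, 334 and 324 with Cont sEV. The list of EGFR and its ligands also holds ERBB2, ERBB3, NRG1, ADAM17, LRIG1 and ERRFI1. Its tested members were higher in 8 and lower in 3 of 11 (median 0.049, the highest of these lists). Those higher without overlap were 3, namely ERBB3, NRG1 and ADAM17, and none were lower, against 6.72% and 4.47% of all genes. EGFR and its tested ligands EGF, TGFA, HBEGF and AREG all had overlapping groups. NRG1, a ligand of ERBB3 and ERBB4, was at 43.1, 44.2 and 44.5 without and 48.1, 45.9 and 47.7 with Cont sEV. TGF-beta ligands, receptors and targets were higher in 18 and lower in 8 of 26 (median 0.027). The antigen presentation list had 8 higher and 10 lower of 18, with its largest difference, 0.29 (0.11 to 0.47), in ERAP1, a peptide-trimming protease of the endoplasmic reticulum.

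Matrix, adhesion and cytoskeletal lists had medians between -0.0082 and 0.041. Extracellular matrix and mesenchymal genes were 18 higher and 9 lower of 27 (median 0.040), and 3 members in each direction had groups that did not overlap, where 6.72% of all genes were higher and 4.47% lower in that way. That median was 0.0021 without Cont sEV replicate 3, 0.012 without No sEV replicate 2 and 0.074 without Cont sEV replicate 2. CDH11, a mesenchymal cadherin, was at 129, 124 and 134 TPM without and 142, 136 and 146 with Cont sEV, and FN1, fibronectin, at 121, 122 and 124 without and 135, 124 and 146 with Cont sEV, with 1 FN1 value only just above the No sEV range. Among the lower ones, COL4A2, a basement membrane collagen chain, was at 34.4, 33.2 and 33.5 without and 31.8, 30.8 and 32.3 with Cont sEV, and LAMB1, a laminin chain, at 9.42, 9.86 and 9.42 without and 8.72, 8.90 and 9.08 with Cont sEV. Integrin subunits were higher in 10 and lower in 2 of 12 (median 0.041). ITGB4, the laminin-binding beta 4 subunit, was at 6.81, 7.36 and 7.27 without and 7.90, 9.11 and 9.55 with Cont sEV, and ITGA2, a collagen receptor subunit, at 103, 107 and 110.5 without and 119, 109 and 124 with Cont sEV with overlap. Epithelial junction and keratin genes were 13 higher and 9 lower of 22 (median 0.0098), and actin cytoskeleton and migration genes 14 higher and 21 lower of 35 (median -0.0082). In the metastasis-associated list, which holds KISS1, NDRG1 and PTGS2, 13 were higher and 9 lower of 22. In the coagulation and plasminogen list 9 were higher and 7 lower of 16, with 5 higher members and no lower one whose groups did not overlap (6.72% and 4.47% of all genes), among them SERPINE2, a thrombin inhibitor, at 41.8, 45.3 and 41.4 without and 47.4, 48.7 and 45.4 with Cont sEV.

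Genes of cell division leaned lower by small amounts. Of 46 tested genes of the G1/S transition and DNA replication 12 were higher and 34 lower (median -0.047), against 56.5% and 43.5% over all genes. In 5 the Cont sEV group lay below the No sEV group and in none above, against 4.47% and 6.72% of all genes. Only 1 of the 46 had an unadjusted p under 0.05, a smaller share than the 6.03% of all genes. PCNA, the sliding clamp of DNA polymerases, was at 171, 174 and 176 TPM without vesicles and 169, 168 and 163 with Cont sEV, and FEN1, the flap endonuclease, at 117.5, 119 and 125 without and 114, 116 and 114 with Cont sEV. Their TIS sEV values, 179.6, 175 and 183 for PCNA and 129, 120.4 and 126 for FEN1, lay above the Cont sEV values. Of 40 genes of G2/M and mitosis 13 were higher and 27 lower (median -0.015), 2 in each direction without overlap, beside 6.72% of all genes higher and 4.47% lower. CDC25C, the phosphatase that activates CDK1, was at 18.4, 17.2 and 17.1 without, 16.2, 15.5 and 14.7 with Cont sEV and 18.3, 19.3 and 18.5 with TIS sEV. PTTG1, securin, which holds back sister chromatid separation, was 1 of the 2 that were higher, at 358, 358 and 351 without and 367, 364 and 375 with Cont sEV. In bulk RNA, fewer cells in a phase and less transcript per cell in that phase cannot be told apart. Replication-dependent histones were 5 higher and 13 lower of 18 (median -0.048), most at a few TPM, as for H4C3 at 1.87, 2.40 and 2.47 without and 1.30, 0.202 and 2.07 with Cont sEV and H3C2 at 1.14, 0.622 and 0.886 without and 1.37, 1.498 and 2.08 with Cont sEV. Apoptosis genes were 18 higher and 16 lower of 34 (median 0.0047), with CASP9, the initiator caspase of the mitochondrial pathway, at 13.1, 13.4 and 15.1 without and 15.3, 16.03 and 16.1 with Cont sEV.

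Transcripts of the mitochondrial genome were the list with the highest median. All 13 mitochondrially encoded mRNAs, which specify subunits of the respiratory chain and ATP synthase, were higher (median 0.21), as were 56.5% of all genes. None had groups without overlap, where 11.2% of all genes did. The 13 mRNAs are cut from shared precursors, so they are not 13 independent observations. Their summed share of TPM was 2.04%, 2.21% and 2.41% in the No sEV libraries, 2.14%, 2.84% and 2.65% in the Cont sEV libraries, and 1.69%, 2.07% and 1.83% in the TIS sEV libraries. Of the Cont sEV values 2 lay above the No sEV range and 1 within it. Means were 2.22 ± 0.186% and 2.54 ± 0.362% (SD, n = 3). Without Cont sEV replicate 2 the difference went from 0.320 to 0.171 percentage points. MT-ND5, a complex I subunit, had the largest difference of the 13, 0.27 (0.011 to 0.52), at 371, 405 and 427 TPM without and 399, 524 and 535 with Cont sEV. Nuclear-encoded respiratory chain subunits did not share that direction, with 30 higher and 45 lower of 75 (median -0.014) and 10 lower against 1 higher without overlap, where 4.47% of all genes were lower and 6.72% higher. NDUFS7, a complex I subunit, was at 91.3, 87.5 and 86.6 without and 79.6, 84.1 and 78.5 with Cont sEV. Because TPM is a share of each library, a higher mitochondrial share lowers all other values slightly; leaving the mitochondrially encoded genes out moved the median of all genes from 0.011 to 0.016.

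Cytosolic ribosomal protein mRNAs, among the most abundant of the cell, were lower in 52 and higher in 27 of 79 members (median -0.027). In 14 the Cont sEV group lay below the No sEV group and in 1 above, against 4.47% and 6.72% of all genes. An unadjusted p under 0.05 was held by 13 lower members and 1 higher one, against 2.5% and 3.53% of all genes. RPL31 was at 3611, 3628 and 3636 TPM without vesicles and 3425, 3519 and 3418 with Cont sEV, and RPL36 at 1303, 1369.8 and 1302 without and 1261, 1253 and 1153 with Cont sEV. Over the 79 members the differences ran from -0.12 to 0.084. Summed, they held 19.2 ± 0.367% of TPM without vesicles and 18.8 ± 0.283% with Cont sEV (SD, n = 3), with overlapping libraries.

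Stress and lipid lists had medians between -0.0045 and 0.033. NRF2 and antioxidant genes were higher in 23 and lower in 8 of 31 (median 0.033), 4 higher and 1 lower without overlap, against 6.72% and 4.47% of all genes. HMOX1, haem oxygenase 1, was at 26.7, 28.1 and 27.4 TPM without vesicles and 29.4, 32.01 and 32.6 with Cont sEV, TXNRD1, thioredoxin reductase, at 356, 373 and 372 without and 402, 379.9 and 393 with Cont sEV, and NQO1, a quinone reductase that is also an aryl hydrocarbon receptor target, at 116, 117 and 112 without and 124, 119 and 119 with Cont sEV. Genes of ER stress and the integrated stress response were 19 higher and 17 lower of 36 (median 0.0020). None had an unadjusted p under 0.05, where 6.03% of all genes did. Heat shock chaperones were 12 higher and 8 lower of 20 (median 0.023), and metallothioneins with zinc transporters 4 higher and 7 lower of 11 (median -0.0045). Sterol genes were split, 14 higher and 11 lower of 25 (median 0.0093). SREBF1, the lipogenic transcription factor, was at 29.3, 25.98 and 30.9 without and 33.1, 36.5 and 31.7 with Cont sEV, while FDFT1, squalene synthase, was at 183, 185 and 184 without and 178, 174 and 171 with Cont sEV. Fatty acid and lipid droplet genes were 12 higher and 8 lower of 20 (median 0.012), with DGAT1, which makes triglycerides, at 39.2, 36.7 and 37.96 without and 45.1, 43.9 and 40.1 with Cont sEV.

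Noncoding transcripts showed the widest scatter. In the list of nuclear and structural noncoding RNAs 9 were higher and 11 lower of 20 (median -0.015). SNHG6, a host gene of small nucleolar RNAs, was at 183, 182 and 172 TPM without vesicles, 151, 163 and 163 with Cont sEV and 191, 186 and 168 with TIS sEV. RN7SL2, the RNA of the signal recognition particle, was at 134, 61.5 and 76.9 without, 45.2, 50.6 and 52.9 with Cont sEV and 82.8, 96.4 and 56.1 with TIS sEV, so the Cont sEV group lay below No sEV and 1 No sEV library stood far above the others. Its near copy RN7SL1 was at 174, 70.7 and 95.3 without and 73.5, 74.1 and 65.6 with Cont sEV with overlap. RN7SK, which sequesters the elongation factor P-TEFb, was at 134, 103 and 127 without, 95.1, 112 and 68.2 with Cont sEV and 96.7, 84.1 and 76.2 with TIS sEV. The largest differences of all, chosen by size alone, rested on values listed at 0 in both directions. The largest upward, 2.73 (-0.34 to 5.79), was that of 7SK, a gene of the same RNA family as RN7SK. It was listed at 0 in all 3 No sEV libraries and in Cont sEV replicate 2, and was at 8.63 and 29.03 TPM in the other Cont sEV libraries. The largest downward, -2.16 (-3.88 to -0.44), was that of ENSG00000285283, listed at 0 in No sEV replicate 1 and in all 3 Cont sEV libraries and at 8.31 and 8.599 TPM in the other No sEV libraries. RMRP, the RNA of a mitochondrial and nucleolar ribonuclease, was at 63.1, 48.1 and 46.4 TPM without vesicles, 40.98 and 42.9 in 2 Cont sEV libraries and listed at 0 in Cont sEV replicate 2, as it was in TIS sEV replicate 3. H4C11, a histone H4 gene, was at 8.59, 1.58 and 2.07 without vesicles, listed at 0 in all 3 Cont sEV libraries, and at 1.46, 7.998 and 8.08 with TIS sEV.

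Processed pseudogenes, intronless copies of mRNAs inserted in the genome, were the gene type with the clearest lean, looked at after the values of all types were seen. Of 338 tested, 260 were higher and 78 lower with Cont sEV, with a median of 0.15 against 0.0093 for 12049 protein-coding genes. In 68 the Cont sEV group lay above the No sEV group and in 5 below, where 6.72% and 4.47% of all genes did. Because the type was picked for this lean, its counts, median and sums are a description. None passed the test, and their median level was 2.35 TPM. Summed over all processed pseudogenes the level was 2542, 2544 and 2400.5 TPM in the No sEV libraries, 2698, 2720.3 and 2873 in the Cont sEV libraries, and 3113, 2579 and 2419 in the TIS sEV libraries. The Cont sEV values lay above the No sEV values, and TIS sEV spanned both. For 257 of them a tested protein-coding parent could be named from the symbol. These pseudogenes had a median difference of 0.16, and their 160 parents one of -0.012, with 61 parents higher and 99 lower. TUBBP2, a tubulin pseudogene, was at 0.828, 0.180 and 0.482 TPM without vesicles, 1.98, 1.97 and 2.01 with Cont sEV and 0.402, 0.558 and 0.990 with TIS sEV, and RPS3AP47, a ribosomal protein pseudogene, at 1.08, 0.898 and 0.634 without, 1.74, 2.44 and 2.18 with Cont sEV and 1.18, 1.12 and 0.864 with TIS sEV; both were chosen after their values were seen. Such copies share sequence with their parents, so reads can be divided between them differently from library to library, and the part of this in the difference was not tested.

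**Figure D5:**
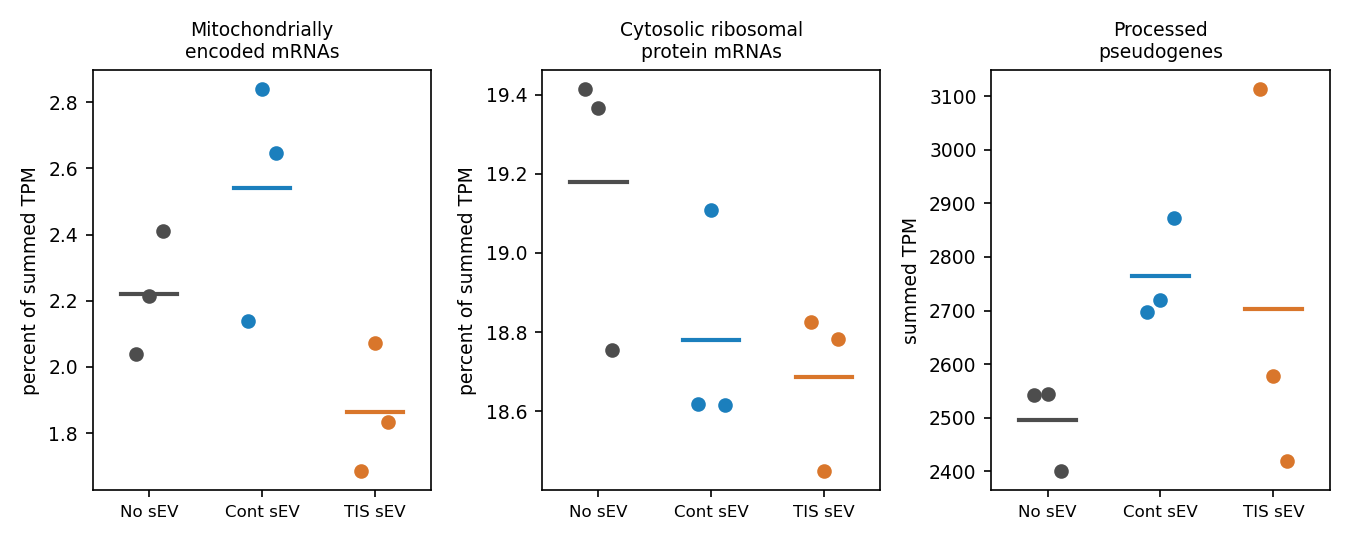
Summed TPM per library for mitochondrially encoded mRNAs and cytosolic ribosomal protein mRNAs (percent of all TPM) and for processed pseudogenes (TPM), with points for libraries and lines for group means (n = 3); the vertical axes do not start at 0. The mitochondrial and ribosomal shares of Cont sEV and No sEV overlap, and the processed pseudogene sums of the 3 Cont sEV libraries, 2698 to 2873, lie above the 3 No sEV sums, 2400.5 to 2544.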

How the data were processed

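The authors deposited 1 table of TPM values for 60719 Ensembl genes, and all 9 of its columns were used. Per the submitters' processing notes, reads went through FastQC 0.11.9, Trim Galore 0.6.6 and Salmon 1.4.0 on build GRCh38.p13, and DESeq2 1.28.0 is listed too. Which annotation release was used is not given in those notes. Read depth per library is unknown, because TPM does not keep it, and count models were therefore not used. The labels supply group and replicate number. They name no separate cultures behind the replicates, so the spread that p-values rest on is that between these libraries and may be technical.

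Gene symbols were found by Ensembl ID for 99.58% of genes, and positions come from GENCODE 29. Genes reaching 1 TPM in 3 or more of the 9 libraries were analysed as log2(TPM + 1). limma 3.58.1 in R 4.3.3 fitted the 9 libraries as 3 groups with a variance trend; tests were two-sided, with Benjamini-Hochberg adjustment over 13879 genes and a threshold of 0.05. The fit was tested on simulated data. Lists are described by counts, medians and summed TPM per library, with no test of a list or its sum.

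Members and lists were chosen with earlier results of these data known. Named genes are those that passed, filled to 10 per direction by smallest p among genes that averaged 5 TPM or more and had groups that did not overlap; up to 4 of smallest p per list; genes that earlier results gave for TIS sEV against Cont sEV; reference and vesicle genes; the 3 largest differences per direction; and the 10 highest levels. Of these, the text gives those that illustrate each list, and it names others from the lists beside their counts. Promoter windows are from RefSeq on GRCh38.p14. Figures were drawn with matplotlib. Alternatives were other pseudocounts, filters and scalings, no mitochondrially encoded genes, a replicate block, only the 6 libraries compared, library weights, a constant prior variance, and each library left out in turn; those for processed pseudogenes were added after seeing the data. Some genes and 1 list that entered the tests are not reported here.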

Additional observations from a re-analysis of the deposited data

How the results depend on the processing

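The count of 0 genes past the threshold in limma's moderated test held in 17 of 20 alternatives. It was 7 with no filter on low values (4 higher, 3 lower, PRSS2 the 1 named in the report), 1 with a filter of 5 TPM (KISS1), and 0 to 1 on leaving out 1 library, the 1 being RPS26P19, lower without Cont sEV replicate 2 (smallest Benjamini-Hochberg adjusted p 0.00491); this pseudogene was listed at 0 in the other 2 Cont sEV libraries. The smallest adjusted p ranged from 0.00191 with no filter to 0.591 without No sEV replicate 2. Genes with an unadjusted p under 0.05 ranged from 621 to 1096 among fits of the same 13879 genes, and without Cont sEV replicate 2 were 774 higher and 322 lower, against 490 and 347. The share of genes whose 95% interval lay within 1.5-fold was 83.7% to 98.1%. Fitting the replicate number as a block gave 0 genes and a smallest adjusted p of 0.122. Correlations of deviations between same-numbered Cont sEV and No sEV libraries were 0.050, -0.037 and 0.0032. Those between differently numbered libraries of the 2 groups ran from -0.046 to 0.045. With 3 libraries per group, these values cannot show whether the numbers pair the samples. Of 115 named genes 113 kept their direction in every alternative; CD63 went from -0.013 to 0.0084 after quantile normalization and ran from -0.029 to 0.0092 on leaving out 1 library (highest without Cont sEV replicate 1). CD81, at -0.030, ran from -0.063 to 0.012 in the same way (highest without No sEV replicate 3); the cause was not tested. The median of the mitochondrially encoded mRNAs ran from 0.12 to 0.33, that of the aryl hydrocarbon receptor list from 0.10 to 0.13, that of the YAP/TAZ targets from -0.038 to -0.013 and that of the processed pseudogenes from 0.10 to 0.20. Medians also kept their sign for hypoxia and glycolysis (0.018 to 0.043), secreted factors (0.025 to 0.047), G1/S (-0.057 to -0.034) and ribosomal proteins (-0.044 to -0.017), while that of interferon-stimulated genes, among lists near 0, did not (-0.011 to 0.032). Intervals were widest at low levels, and under 2 TPM the median interval reached 0.37 (log2) either way.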
